A study of Homo sapiens with 9 samples.

Results

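The S100 genes encode small calcium-binding proteins, and the 10 genes followed here were *S100A2*, *S100A3*, *S100A4*, *S100A6*, *S100A10*, *S100A11*, *S100A13*, *S100A14*, *S100A16* and *S100P*, picked by symbol among the 60708 genes listed in each count file. All 10 were found, once each. They were read in 9 RNA-sequencing libraries of untreated cells, all labelled as MDA-MB-231, an established human cell line of mesenchymal, triple-negative breast cancer. Of these libraries, 3 were labelled wild type (WT), 3 were labelled clone CS16 and 3 were labelled clone CS19. Both clones carried the genotype label *SNAI1* knockout and are pooled as *SNAI1*-KO in one comparison, which gave 6 libraries. *SNAI1* is a zinc finger repressor that drives epithelial-mesenchymal transition, and the comparison asked which transcripts differed once it was targeted. Per the study's methods, a pool of CRISPR/Cas9 guide plasmids was delivered with repair-template plasmids, cells were selected with puromycin, and each clone was expanded from a single cell, whereas the WT cells were not described as a clone. All cells grew in the same serum-containing medium.

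S100 proteins bind calcium through EF-hands, usually as dimers, and upon binding expose a surface that grips a target protein. They have no enzymatic activity of their own. Their targets include annexins at membranes, non-muscle myosin, membrane-cytoskeleton linkers and, outside the cell, receptors such as RAGE. In breast carcinoma cells, members of the family are known for their links to motility, plasminogen activation at the cell surface and membrane repair, and most human members lie side by side on the long arm of chromosome 1.

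Of the 10 genes, 9 lay on chromosome 1, all on the minus strand, and *S100P* lay alone on chromosome 4 on the plus strand (GRCh38, gencode release 38). *S100A10* (1:151982915-151993859) and *S100A11* (1:152032506-152047907) spanned 65.0 kb and were separated by 1487 kb from a tighter group. That group began with *S100A6* (1:153534599-153536244) and ran through *S100A4* (1:153543613-153550136), *S100A3* (1:153547329-153549258), *S100A2* (1:153561108-153567890), *S100A16* (1:153606886-153613145) and *S100A14* (1:153614255-153616986) to *S100A13* (1:153618787-153631360) within 96.8 kb. *S100A3* lay inside the gene body of *S100A4*, with 0 shared exon bases. The promoters of 5 members are shown because they belong to 4 of the 5 transcripts with log2 fold changes of -8.90 or beyond (*S100A6*, *S100A16*, *S100A3*, *S100A4*) and to the one that was highest in the clones (*S100A10*). Each line holds 250 bases before to 50 after a RefSeq start (GRCh38.p14, minus strand of chromosome 1, 5′ to 3′), with capitals at an E-box of the kind *SNAI1* recognises (CAGGTG or CACCTG), an AP-1 motif (TGANTCA) or a TATA motif (TATAAA), each searched on both strands.
S100A6 (chr1:153535942-153536241): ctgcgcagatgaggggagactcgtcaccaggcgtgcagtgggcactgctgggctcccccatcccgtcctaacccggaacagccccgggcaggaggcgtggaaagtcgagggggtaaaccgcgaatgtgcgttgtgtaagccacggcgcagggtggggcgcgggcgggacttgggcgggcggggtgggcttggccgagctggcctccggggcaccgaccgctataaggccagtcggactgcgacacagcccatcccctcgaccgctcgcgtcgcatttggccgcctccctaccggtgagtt
S100A4 (chr1:153545757-153546056): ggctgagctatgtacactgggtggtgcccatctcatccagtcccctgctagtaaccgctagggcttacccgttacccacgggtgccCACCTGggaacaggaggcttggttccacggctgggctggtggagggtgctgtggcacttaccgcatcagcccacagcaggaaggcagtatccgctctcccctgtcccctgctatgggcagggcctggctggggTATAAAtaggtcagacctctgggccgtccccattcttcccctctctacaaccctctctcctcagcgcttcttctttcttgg
S100A16, first RefSeq entry (chr1:153613088-153613387): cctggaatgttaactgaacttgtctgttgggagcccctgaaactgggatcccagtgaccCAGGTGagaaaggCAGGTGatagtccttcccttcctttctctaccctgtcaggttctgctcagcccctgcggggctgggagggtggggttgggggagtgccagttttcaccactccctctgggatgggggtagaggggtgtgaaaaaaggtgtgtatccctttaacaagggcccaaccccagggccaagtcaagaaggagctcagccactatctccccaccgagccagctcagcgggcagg
S100A3 (chr1:153549209-153549508): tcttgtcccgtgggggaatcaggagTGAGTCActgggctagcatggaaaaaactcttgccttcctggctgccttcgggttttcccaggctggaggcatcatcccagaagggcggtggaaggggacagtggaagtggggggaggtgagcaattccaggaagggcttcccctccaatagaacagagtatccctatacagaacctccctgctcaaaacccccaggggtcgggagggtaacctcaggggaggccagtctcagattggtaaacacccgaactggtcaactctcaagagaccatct
S100A10 (chr1:151993810-151994109): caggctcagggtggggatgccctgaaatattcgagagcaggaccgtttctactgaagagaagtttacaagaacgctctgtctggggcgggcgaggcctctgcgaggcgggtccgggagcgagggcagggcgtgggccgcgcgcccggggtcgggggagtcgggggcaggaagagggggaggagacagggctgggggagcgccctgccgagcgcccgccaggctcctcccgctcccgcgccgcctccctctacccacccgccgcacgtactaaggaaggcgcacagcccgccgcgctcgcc

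All 10 members had a RefSeq promoter, and with alternative starts they had 14 entries. The E-box was matched at -164 in *S100A4*, at -191 and -178 in the first *S100A16* entry and at 45 in its second, at -18 in the second *S100A2* entry, at -14 in *S100A14* and at -218 in *S100P*, counted from the start site. Of 35116 promoters of the same length, 20.6% held such an E-box. The AP-1 motif was matched at -225 in *S100A3* and at -52 in the first *S100A2* entry, against 7.71% of all promoters. A TATA motif stood at -31 in *S100A4*, at -28 in *S100P* and at -29 in the second *S100A13* entry, against 11.5% of all promoters. The windows of *S100A6*, *S100A10* and *S100A11* held none of these letters. They held 31, 32 and 22 CG dinucleotides in 300 bases, and the *S100A13* entries 11 to 19, against a median of 14 (interquartile range 4 to 28) over all promoters. The windows of *S100A2*, *S100A3*, *S100A4* and *S100A16* held between 3 and 8, and those of *S100A14* and *S100P* held 5 each. None of these motifs overlapped another in the 14 entries, and a match is a description of the letters alone.

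The libraries held 19527195 to 28627777 counted read pairs, so that 3 counts, taken as the detection floor, lay between 0.0984 and 0.172 on the CPM scale, which divides counts by the TMM-scaled library total. The replicate WT-2 stood apart from its group, as chi-square divided by its degrees of freedom was 188 and 230 against WT-1 and WT-3 and 14.6 between those. The gene-level count of the targeted gene went against its label. *SNAI1* had 16, 38 and 21 counts in WT-1, WT-2 and WT-3, but 26, 40 and 49 in CS16 and 57, 94 and 94 in CS19, and was not lower in the libraries labelled *SNAI1*-KO (log2 fold change 0.89, SE 0.42, adjusted p = 0.0838 by edgeR's quasi-likelihood test). In CS19 alone *SNAI1* was higher (1.32, adjusted p = 0.031, same test). That difference no longer passed without WT replicate 1 or 3, or without CS19 replicate 2 or 3 (adjusted p = 0.0869, 0.0743, 0.101 and 0.0675). Both clones together were higher without WT replicate 2 or CS16 replicate 1 (1.40 and 1.03, adjusted p = 0.0146 and 0.0454). Gene-level counts do not show whether the coding sequence was altered, and the study's own checks of the clones at the locus, by RT-qPCR and by immunoblot were not analysed here. The 9p21 genes *CDKN2A*, *CDKN2B* and *MTAP*, which MDA-MB-231 cells are known to lack, had 0 counts in every WT library and together 164 to 182 CPM in the clones. Of 10 MDA-MB-231 markers, 9 were lower in the libraries labelled *SNAI1*-KO (log2 fold change of -2 or beyond and adjusted p below 0.05), against 14.3% of all tested genes, with summed levels of 7366 to 8130 CPM in WT, 570.0 to 591 in CS16 and 534 to 573 in CS19. *CD44*, a defining marker of this line, had 0 counts in CS16 and 2 in CS19. Of 8 luminal breast markers, 6 were tested and went both ways. The keratins *KRT8*, *KRT18* and *KRT19*, which made up most of the sum, and 2 others were lower, so that the list summed to 1460 to 2140 CPM in WT and 56.5 to 98.8 CPM in the clones, whereas *FOXA1*, a pioneer factor of luminal cells, was higher, with 2 counts over the WT libraries, 221 over CS16 and 1249 over CS19. Of 10 nephric lineage markers, 8 were tested and these also went both ways. There 4 were called higher and 2 lower, against 12.6% and 14.3% of all tested genes. The nephric list summed to 75.0 to 112.2 CPM in WT and 129 to 148 CPM in the clones, so its sum hides opposite differences. Summed haematopoietic markers stayed at or below 6.98 CPM in every library, and of 4 hepatocyte markers *ALB* and *TTR* had 0 counts in WT and at most 4 in any clone library, while *SERPINA1* alone was at 34.2 CPM in WT and 0.0258 CPM in the clones. In both clones *CD44* was thus at or near 0 and genes that the labelled line is known to lack were transcribed, and whether the clones descend from the WT cells read here cannot be told from these counts. Genotype therefore cannot be told apart from any other difference between the WT cells and the cells of both clones, and all S100 comparisons below are between libraries as labelled. In bulk samples, moreover, fewer cells of a type and less RNA per cell cannot be told apart.

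*S100A6* and *S100A4* were among the most abundant messages of the WT libraries, and the summed S100 level was far lower in the clones. On the length-corrected scale (TPM, computed from the deposited counts and exon lengths), the 10 members summed to 21378, 14267 and 21948 TPM in WT-1, WT-2 and WT-3. The sum was 422, 337 and 348 TPM in CS16 and 303, 353 and 276 TPM in CS19, so the WT and clone libraries did not overlap. In the WT libraries *S100A6* alone made up 74.4%, 68.7% and 75.0% of the sum. Of the 10 members, 9 exceeded the floor in each WT library, 5 in each CS16 library, and 4, 4 and 7 in the CS19 libraries.

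**Figure D1:**
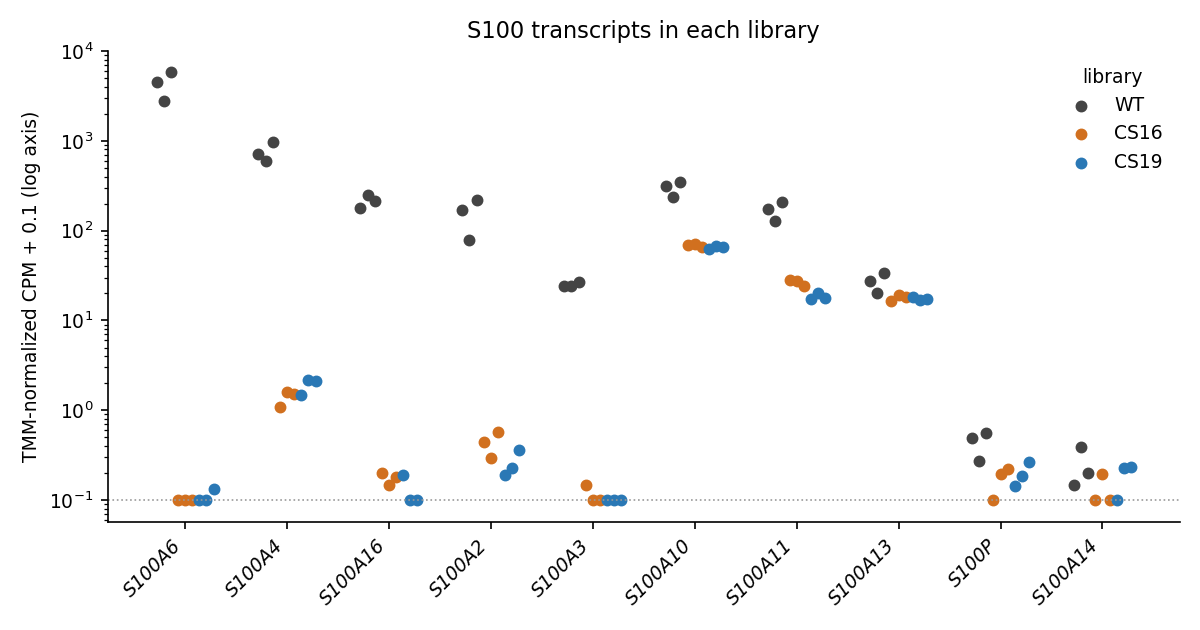
TMM-normalized CPM plus 0.1 (log axis) of the 10 S100 transcripts, 1 point per library, with WT in grey, CS16 in orange and CS19 in blue, and a dotted line where a count of 0 lies. For 5 transcripts (*S100A6*, *S100A4*, *S100A16*, *S100A2*, *S100A3*) the clone libraries lie at 2.09 CPM or below, for *S100A10* and *S100A11* they lie below WT but at 17.3 CPM or above, and for *S100A13* they lie just under the lowest WT library.

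Between genes, levels were compared per length. In WT the order by mean TPM was *S100A6* (14055 ± 3691 TPM, SD, n = 3), *S100A4* (2519 ± 310), *S100A10* (941 ± 141), *S100A11* (829 ± 129), *S100A16* (402 ± 86.9), *S100A2* (316 ± 124), *S100A3* (95.4 ± 6.02), *S100A13* (38.3 ± 6.46), *S100P* (2.29 ± 0.901) and *S100A14* (0.375 ± 0.345). The neighbours *S100A10* and *S100A11*, and *S100A16* and *S100A2*, overlapped in their ranges across WT libraries, and the other neighbours did not. In the 6 libraries labelled *SNAI1*-KO the order was *S100A10* (202 ± 22.6 TPM, SD, n = 6), *S100A11* (107 ± 28.3), *S100A13* (24.4 ± 1.75) and *S100A4* (5.03 ± 1.30), and every other member was below 1 TPM in each of them. These 4 did not overlap with each other. *S100A6* led the family in WT, and *S100A10* led it in the clones.

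The 6 *SNAI1*-KO libraries were first set against the 3 of WT, with 19631 genes past the filter on low counts. The test was edgeR's quasi-likelihood test, and a call needed that the Benjamini-Hochberg adjusted p was below 0.05 and the log2 fold change at least 2 in either direction. Of the 10 S100 members, 8 passed the filter and 7 were called lower, none higher, against a background of 14.3% of all tested genes called lower. By adjusted p alone all 8 tested members were lower, against 63.7% of all tested genes past this threshold in either direction. The median log2 fold change was -9.07 over the 8 members and -0.0040 over all tested genes. *S100A2*, *S100A3*, *S100A6* and *S100A16* passed the filter through their WT counts, so they could hardly come out other than lower. The members were also chosen with earlier results of these data known. The share called and the median thus describe these members and are no test of the family. *S100A14* and *S100P* were too low in all groups to be tested in this fit and are described separately.

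*S100A6* (calcyclin), which binds annexins and the ubiquitin ligase adaptor *CACYBP*, showed the largest difference. It had 90400, 48439 and 112919 counts in WT-1, WT-2 and WT-3, or 0.430%, 0.246% and 0.515% of all counted pairs. It had 0, 0 and 0 counts in CS16 and 0, 0 and 1 in CS19. A message that ranked 2, 4 and 2 among all genes by TPM in the WT libraries was thus represented by a single read pair in the 6 clone libraries. The pooled counts gave a WT to *SNAI1*-KO ratio of 624866, with a 95% counting interval of 112150 to 2.47e+07, and against CS16, where no count was seen, *S100A6* was at least 32487-fold lower (3 counts in each library as the floor). The fitted log2 fold change of -18.39 (SE 0.43, adjusted p = 1.3e-10, edgeR's quasi-likelihood test) depends on the prior count and is no bound. Of its exon bases, 23 were shared with a gene on the opposite strand, and strand was not used in the counting.

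*S100A4* (metastasin) binds the heavy chain of non-muscle myosin IIA and is the member most tied to cell motility. It had 14345, 10485 and 18630 counts in the WT libraries, which ranked it between 21 and 36 among all genes by TPM. Counts of 20, 31 and 36 in CS16 and of 30, 48 and 62 in CS19 remained. *S100A4* was thus low but above the floor in every clone library, unlike the nearby *S100A6*. Its level was 756 ± 184 CPM (SD, n = 3) in WT and 1.56 ± 0.422 CPM (SD, n = 6) in *SNAI1*-KO, a log2 fold change of -8.90 (SE 0.26, adjusted p = 4.4e-10, edgeR's quasi-likelihood test).

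*S100A16*, a broadly expressed member whose amino-terminal EF-hand is atypical, had 3580, 4340 and 4132 counts in WT. The clones had 2, 1 and 2 counts (CS16) and 2, 0 and 0 counts (CS19), each below the floor. The pooled ratio was 4273, with a 95% counting interval of 2073 to 10631, and the log2 fold change was -11.91 (SE 0.35, adjusted p = 4.79e-10, edgeR's quasi-likelihood test). *S100A16* was highest in WT-2, at 1.28 times the mean of WT-1 and WT-3.

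*S100A2*, a member known from epithelia, varied most of the tested members between the WT libraries, with 3446, 1359 and 4303 counts. It had 7, 4 and 12 counts in CS16 and 2, 3 and 8 in CS19. WT-2 held 0.397 times the mean of the other WT libraries on the CPM scale, yet its 77.7 CPM lay far above the highest clone library (0.478 CPM). The log2 fold change was -9.24 (SE 0.41, adjusted p = 5.72e-09, edgeR's quasi-likelihood test). *S100A3*, a cysteine-rich member best known from the hair cuticle, had 486, 424 and 526 counts in WT, 1, 0 and 0 in CS16 and 0, 0 and 0 in CS19. It was the steadiest member across WT libraries (25.1 ± 1.68 CPM, SD, n = 3). The pooled ratio was 3564, with a 95% counting interval of 639 to 140874, and *S100A3* was at least 211-fold lower in CS19 (3 counts in each library as the floor). The fitted log2 fold change was -10.95 (SE 0.39, adjusted p = 1.26e-09, edgeR's quasi-likelihood test).

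*S100A10* (p11) differs from the rest of the family in that it does not need calcium to bind. It pairs with annexin A2 and serves as a plasminogen receptor at the cell surface. It had 6390, 4101 and 6781 counts in WT, 1393, 1496 and 1643 in CS16 and 1361, 1537 and 1986 in CS19. The WT and clone libraries did not overlap, and the clone libraries lay close together. *S100A10* stood at 299.7 ± 58.7 CPM (SD, n = 3) in WT and, 4.50 times lower, at 66.5 ± 3.23 CPM (SD, n = 6) in *SNAI1*-KO (log2 fold change -2.17, SE 0.14, adjusted p = 8.61e-08, edgeR's quasi-likelihood test). This value lay just past the fold threshold.

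*S100A11*, which binds annexin A1 and takes part in membrane repair, had 3486, 2248 and 4076 counts in WT. It had 574, 575 and 604 counts in CS16 and 380, 466 and 537 in CS19. Every clone library lay below every WT library, and CS19 lay below CS16. *S100A11* was 7.57 times lower in *SNAI1*-KO (170.2 ± 40.5 CPM, n = 3, and 22.5 ± 4.81 CPM, n = 6, both with SD), with a log2 fold change of -2.92 (SE 0.20, adjusted p = 1.96e-07, edgeR's quasi-likelihood test).

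*S100A13*, which assists the release of *FGF1* by a route that bypasses the classical secretory pathway, was the member that differed least. It had 553, 348 and 648 counts in WT, 333, 405 and 456 in CS16 and 395, 385 and 528 in CS19. After normalization the highest clone library (19.4 CPM) lay just below WT-2 (19.9 CPM). The log2 fold change was -0.61 (SE 0.17, adjusted p = 0.00773, edgeR's quasi-likelihood test), short of the fold threshold. Without the filter on low counts it was -0.50 (adjusted p = 0.0527), and without WT replicate 3 it was -0.40 (adjusted p = 0.0662), both by edgeR's quasi-likelihood test. Of its 2216 exon bases, 235 were shared with the antisense gene *S100A1* and 536 with an unnamed gene on the same strand, so its counts are uncertain.

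*S100P* and *S100A14* were close to the floor. *S100P*, which binds ezrin, IQGAP1 and RAGE, had 8, 3 and 9 counts in WT, 0, 2 and 3 in CS16 and 1, 2 and 5 in CS19. The WT libraries lay at 0.172 to 0.463 CPM, above all clone libraries, of which the highest had 0.164 CPM. An exact permutation test (two-sided) of 6 against 3 libraries gave p = 0.0238, the smallest value this design allows. It took the 6 clone libraries as separate units and did not use their grouping by clone. The pooled ratio was 3.82 with a 95% counting interval of 1.81 to 8.35. With no filter on low counts, edgeR's quasi-likelihood test gave *S100P* an adjusted p of 0.0457, and *S100A14* one of 0.428. By the same test *S100P* did not pass in CS16 alone (adjusted p = 0.0891) or in CS19 alone (adjusted p = 0.141). *S100A14*, another RAGE ligand, had 1, 5 and 2 counts in WT, 0, 2 and 0 in CS16 and 0, 3 and 4 in CS19. Its groups overlapped and a difference was not detectable at this depth (two-sided exact permutation p = 0.214).

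Each clone was also set against WT in a fit of its own. Both fits share the WT libraries, and *S100A2*, *S100A3*, *S100A6* and *S100A16* again passed the filter through WT. In CS16 against WT, 8 members were tested and 7 were called lower, against a background of 15.3% of 18611 tested genes called lower. In CS19 against WT, 7 of 8 were called lower as well, against a background of 14.4% of 18935. The uncalled gene was *S100A13* each time, with a log2 fold change of -0.55 (adjusted p = 0.0751) in CS16 and -0.59 (adjusted p = 0.0579) in CS19 by edgeR's quasi-likelihood test. Without WT replicate 2, *S100A13* passed the adjusted p in both, at -0.76 (adjusted p = 6.67e-05) and -0.79 (adjusted p = 8.86e-06), but not the fold. *S100A10* had a log2 fold change of -2.10 (SE 0.20) in CS16 and -2.17 (SE 0.20) in CS19, and its call in CS16 ended without WT replicate 3, where the value was -1.97. *S100A11* was at -2.65 (SE 0.22) in CS16 and -3.17 (SE 0.23) in CS19. *S100A4* was at -9.14 (SE 0.34) in CS16 and -8.64 (SE 0.34) in CS19, and *S100A2* at -8.77 (SE 0.57) and -9.76 (SE 0.60).

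**Figure D2:**
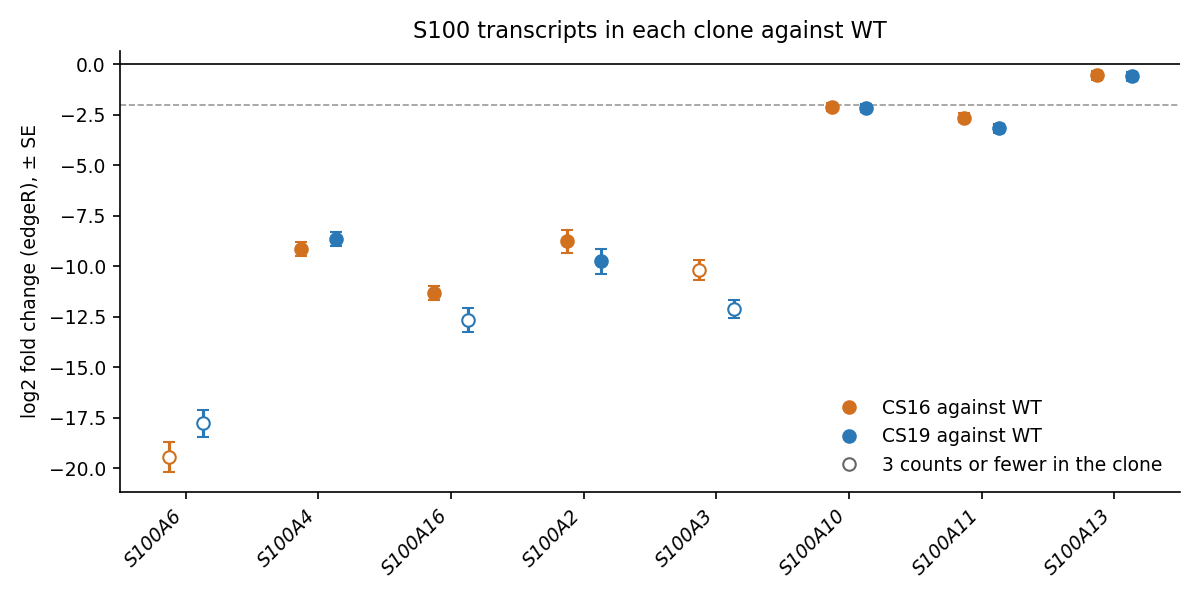
Log2 fold change (edgeR) of the 8 tested S100 transcripts in CS16 (orange) and CS19 (blue) against WT, with the SE as error bars and the fold threshold of -2 as a dashed line. Open symbols mark transcripts with 3 counts or fewer over the clone's libraries, whose fitted values depend on the prior count. *S100A10* and *S100A11* lie beyond the threshold and *S100A13* above it in both clones.

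The clones carry the same genotype label, and their comparison used no WT library. Of the 10 members, 4 passed the filter in CS16 against CS19, and 1 of these, *S100A11*, passed the adjusted p, against a background of 27.4% of 17538 tested genes in either direction. *S100A11* was at 28.2, 27.5 and 24.1 CPM in CS16 and at 17.3, 20.2 and 17.6 CPM in CS19. The clones did not overlap, and CS16 was 1.45 times higher (log2 fold change 0.53, SE 0.09, adjusted p = 0.00096, edgeR's quasi-likelihood test), short of the fold threshold. *S100A4* was at 0.982, 1.48 and 1.43 CPM in CS16 and at 1.37, 2.09 and 2.03 CPM in CS19. Its ranges overlapped and its difference did not pass the test (log2 fold change -0.50, SE 0.26, adjusted p = 0.191). *S100A10* (log2 fold change 0.08, SE 0.07) and *S100A13* (0.05, SE 0.09) did not pass either, with overlapping ranges and adjusted p = 0.424 and 0.767 by edgeR's quasi-likelihood test. At an unadjusted p below 0.05, 1 of the 4 passed (*S100A11*), and DESeq2 also called 0 members at the fold threshold. The remaining 6 members did not pass the filter on low counts, and with no filter their adjusted p lay between 0.419 and 0.863 (edgeR's quasi-likelihood test).

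**Figure D3:**
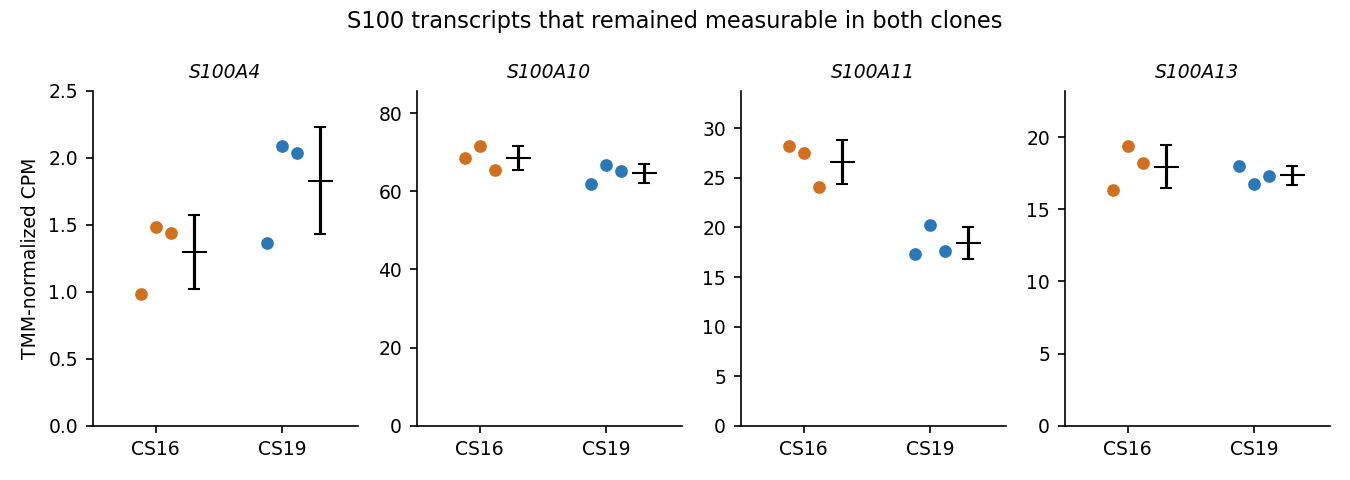
TMM-normalized CPM of the 4 S100 transcripts that were testable in both clones, 1 point per library (CS16 in orange, CS19 in blue), with the mean and SD in black and each axis starting at 0. The clones separate for *S100A11* and overlap for *S100A4*, *S100A10* and *S100A13*.

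Position along the chromosome was compared with the size of the difference. From *S100A6* to *S100A16*, a stretch of 78.5 kb, the 5 members had pooled WT to *SNAI1*-KO ratios between 475 (*S100A4*) and 624866 (*S100A6*). *S100A5*, which lies between *S100A6* and *S100A4*, had 125, 68 and 120 counts in WT and at most 3 in any clone library (log2 fold change -7.32, or -8.58 without CS19 replicate 2, SE 0.57, adjusted p = 5.58e-07, edgeR's quasi-likelihood test). The gene body of *S100A13* lies 5.64 kb beyond that of *S100A16*, with *S100A14* between them, and *S100A13* differed by -0.61. *S100A1*, a member with roles in muscle that overlaps *S100A13* on the other strand, was higher in *SNAI1*-KO, at 2.18 ± 0.655 CPM (SD, n = 6) against 0.982 ± 0.196 CPM (SD, n = 3) in WT (log2 fold change 1.15, SE 0.34, adjusted p = 0.0106, edgeR's quasi-likelihood test), although its groups overlapped. Further along, *CHTOP* (0.78), *SNAPIN* (1.09), *ILF2* (1.35) and *INTS3* (0.62) were higher in *SNAI1*-KO by adjusted p, as was *THEM4* (1.04) next to *S100A10*. Of 17 protein-coding neighbours within 100 kb of a member, 13 were tested and 1 was called lower (*S100A5*), against 14.3% of all tested genes. By adjusted p 8 were higher, 3 lower and 2 neither, against 63.7% of all tested genes past it in either direction. These counts include neighbours of *S100P* on chromosome 4. There *MAN2B2* (-1.56) and *KIAA0232* (-0.64) were lower, *MRFAP1L1* (0.76) and an unnamed gene (1.37) higher, and *MRFAP1* and *BLOC1S4* neither. On chromosome 1 *S100A5* was the only tested neighbour lower by adjusted p.

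**Figure D4:**
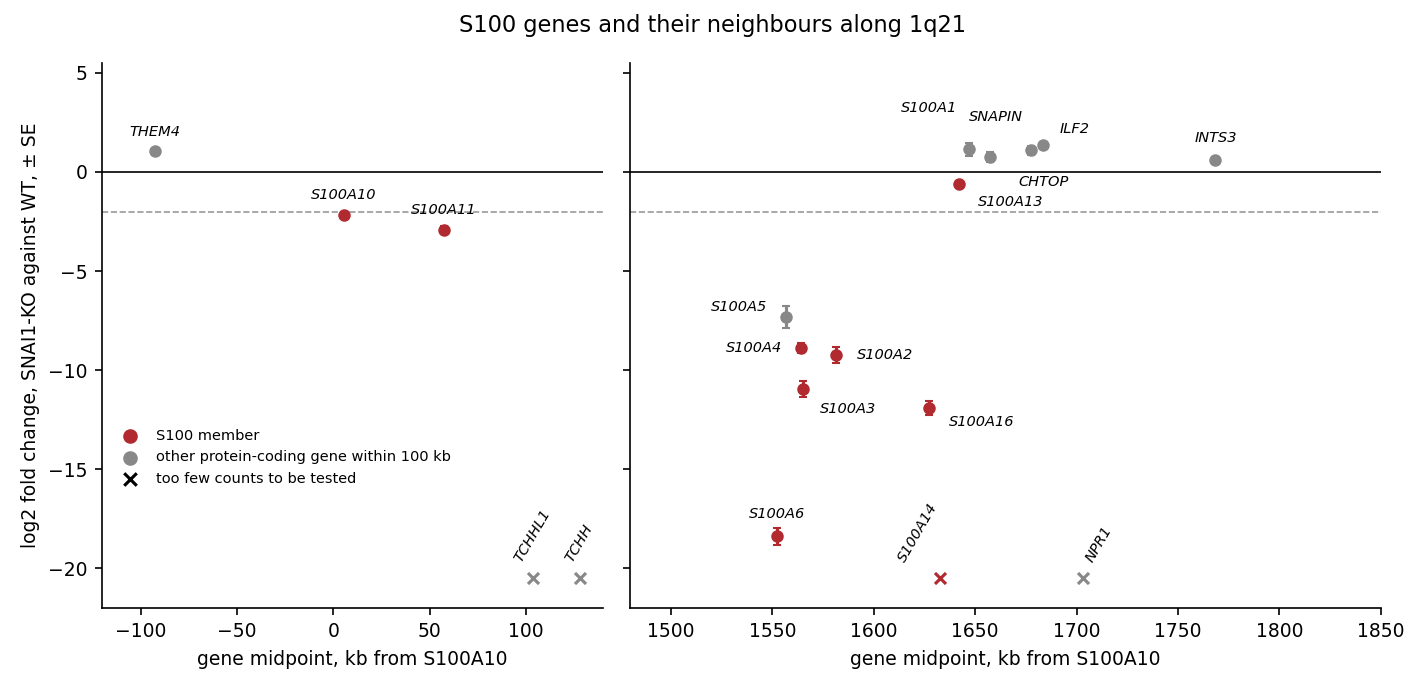
Log2 fold change of *SNAI1*-KO against WT with SE, by gene midpoint in kb from the lowest coordinate of *S100A10*. Panels show the *S100A10* and *S100A6* ends of the cluster. S100 members are in red and other protein-coding genes in grey. The fold threshold is dashed, and crosses mark genes with too few counts to be tested. The low values from *S100A6* to *S100A16*, *S100A5* included, are flanked on the right by *S100A13* at -0.61 and by genes above 0.

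Few other S100 genes were measurable. Of 11 further family members listed in the files, *S100A5* and *S100A1* were tested, and 8 were at or under the floor in every library. The inflammatory pair *S100A8* and *S100A9* had 0 counts throughout.

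Known protein partners of the S100 members were lower in part. Of 23 genes on this list, 22 were tested, 6 were called lower and none higher, and by adjusted p 15 were lower, 5 higher and 2 neither, with a median log2 fold change of -1.12. Over all tested genes 14.3% were called lower and the median was -0.0040, which also holds as the background of the lists that follow. The partners of *S100A10* and *S100A11* showed large differences. *ANXA2*, the partner of *S100A10*, was at 2045, 1531 and 2432 CPM in WT and 154 ± 14.4 CPM (SD, n = 6) in *SNAI1*-KO (log2 fold change -3.70, SE 0.16, adjusted p = 5.33e-09, edgeR's quasi-likelihood test). *AHNAK*, the large scaffold held by that complex, had a log2 fold change of -5.29 (SE 0.27). *ANXA1*, the partner of *S100A11*, was at 707, 347 and 836 CPM in WT and 19.5 ± 6.19 CPM (SD, n = 6) in *SNAI1*-KO (-5.01, SE 0.32). *ANXA6* (-0.73, SE 0.23) and *ANXA11* (-1.21, SE 0.17), which bind *S100A6*, were lower by adjusted p but short of the fold. *ANXA6* no longer passed without WT replicate 3 (adjusted p = 0.0581), and its clones differed, at 256 CPM in CS16 and 148 CPM in CS19. In CS16 alone *ANXA6* did not pass (-0.35, adjusted p = 0.0860, edgeR's quasi-likelihood test), although it did without WT replicate 2 (-0.41, adjusted p = 0.00167). For *ANXA2*, *AHNAK* and *ANXA1* the WT and clone libraries did not overlap.

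The partners of the other members differed in direction. *MYH9*, the myosin heavy chain bound by *S100A4*, was at 1939, 5766 and 1898 CPM in WT, where WT-2 stood apart, and at 432 ± 64.4 CPM (SD, n = 6) in *SNAI1*-KO (log2 fold change -2.89, SE 0.31, adjusted p = 8.7e-06, edgeR's quasi-likelihood test). Without WT-2 it was at -2.15, and short of the fold threshold for CS19 alone (-1.96). *MYH10*, its relative, was higher (1.01, SE 0.22). *CACYBP* (0.29, adjusted p = 0.224) and *SUGT1* (0.27, adjusted p = 0.351), both bound by *S100A6*, did not pass the test. For *SUGT1* the clones did not overlap. It was at 122.7 ± 8.64 CPM in CS16, 78.3 ± 4.02 CPM in CS19 and 83.5 ± 22.9 CPM in WT (SD, n = 3 each). *FGF1*, the cargo of *S100A13*, had 78, 43 and 119 counts in WT and at most 2 in any clone library (-6.94, SE 0.55, and -7.55 without CS19 replicate 1), while *SYT1*, found in the same release complex, was higher (1.28, SE 0.24). Of the partners of *S100P*, *EZR* (-1.97, SE 0.13, and -2.03 without WT replicate 1 or -2.01 without CS16 replicate 2, past the fold) and *IQGAP1* (-1.44, SE 0.14) were lower by adjusted p and *S100PBP* was higher (0.80, SE 0.15). *AGER*, the gene for RAGE, was lower by adjusted p (-1.41, SE 0.29), and *TLR4*, a receptor of extracellular S100 proteins, had 476, 174 and 405 counts in WT and 0 in every clone library.

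The plasminogen system is served at the cell surface by *S100A10* with annexin A2. Of its 5 listed genes, 4 were tested and 3 were called lower, with a median log2 fold change of -3.73. *PLAU*, the urokinase, was at 402, 379 and 453 CPM in WT and 1.12 ± 0.268 CPM (SD, n = 6) in *SNAI1*-KO (log2 fold change -8.53, SE 0.21, adjusted p = 1.61e-10, edgeR's quasi-likelihood test). Its receptor *PLAUR* was at -3.54 (SE 0.14) and the tissue activator *PLAT* at -3.92 (SE 0.21). *SERPINE2*, an inhibitor of both activators, was at 0.52 over both clones and did not pass (adjusted p = 0.152), but the clones differed. It was at 31.9 ± 1.22 CPM in CS16, 15.6 ± 1.51 CPM in CS19 and 16.5 ± 0.772 CPM in WT (SD, n = 3 each), higher in CS16 than in WT (0.98, adjusted p = 0.00185) and than in CS19 (1.03, adjusted p = 2.72e-06), by edgeR's quasi-likelihood test. For CS19 against WT it was at -0.04 (adjusted p = 0.851), and *PLG*, plasminogen itself, had 0 counts throughout.

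As a comparison, 19 EF-hand genes outside the S100 family were read. Of these, 17 were tested, 3 were called lower and 1 higher, and by adjusted p 12 were lower, 2 higher and 3 neither, with a median log2 fold change of -0.90. *CALB2* (calretinin) had 1040, 1193 and 1159 counts in WT and at most 2 in any clone library. *CAPN2*, the large subunit of a calpain, was at -2.88 (SE 0.21) and *EFHD2* at -2.62 (SE 0.33). *EFHD2* was at 89.5, 309 and 98.9 CPM in WT-1, WT-2 and WT-3, and without WT-2 its value was -1.80, short of the fold threshold. *PVALB* (parvalbumin) had 0 counts in every WT library and 3 to 16 in the clones. The calmodulin gene *CALM3* (-0.40, adjusted p = 0.0983) did not pass the test, although it did without WT replicate 1 (-0.57, adjusted p = 0.0301). *CALM2* was lower by adjusted p (-1.45, SE 0.30), although its groups overlapped. Its lowest WT library was at 405 CPM, within the 372 to 439 CPM of the clone libraries.

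**Figure D5:**
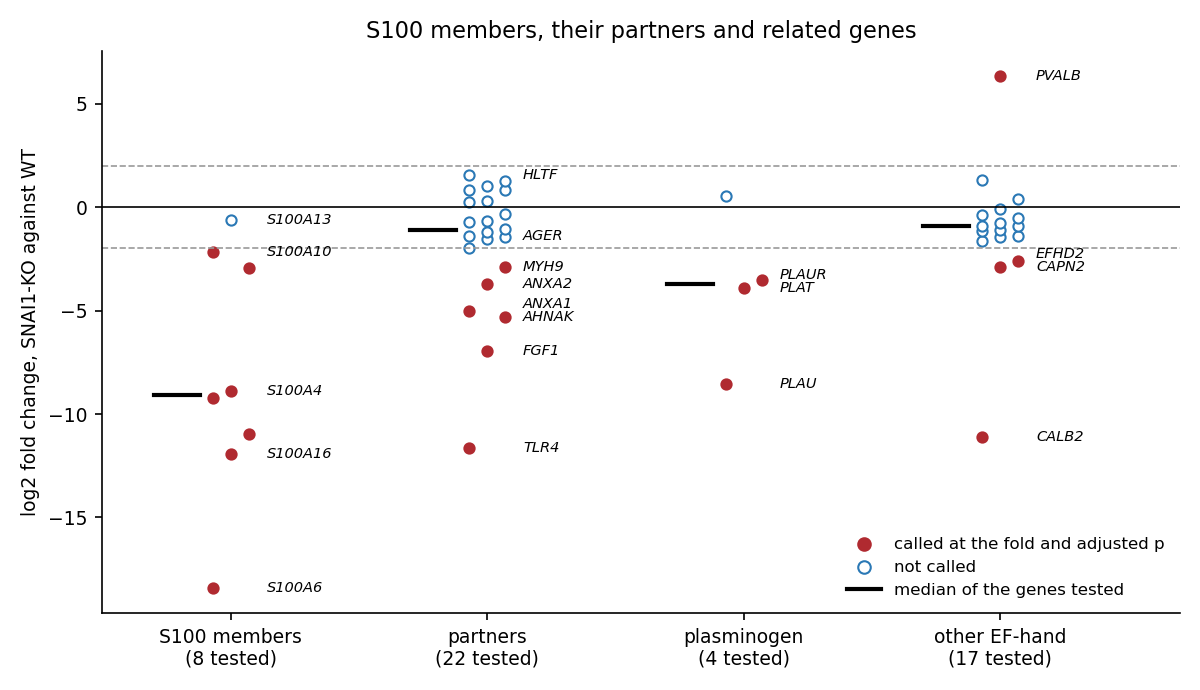
Log2 fold change of *SNAI1*-KO against WT for the tested S100 members, their protein partners, the plasminogen genes and other EF-hand genes, 1 point per gene, filled where the gene was called, with bars at the medians of the genes tested and dashed lines at the fold threshold. The members spread from -0.61 to -18.39, whereas most partners and other EF-hand genes lie between the dashed lines.

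Replicate WT-2 lay below both other WT libraries for 6 of the 8 tested members, at 0.397 times their mean for *S100A2*, 0.539 for *S100A6*, 0.656 for *S100A13*, 0.673 for *S100A11*, 0.706 for *S100A10* and 0.720 for *S100A4*. *S100A3* was at 0.950 and *S100A16* at 1.28. Without this library the 7 called members stayed called in each of the 3 comparisons with WT. The labels number the replicates but do not say that they came from separate cultures, so p-values measure the spread between these libraries, which may be technical. Markers of the cell line and the tested S100 transcripts were lower in the clone libraries than in WT, and the 9p21 genes were higher. The part of the cell line markers and 9p21 genes in the S100 differences was not tested.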

How the data were processed

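RNA sequencing was read in 9 libraries, 3 each of WT, CS16 and CS19, grouped by their labels. Per the labels and the study's methods, total RNA was depleted of ribosomal RNA and made into stranded, paired-end libraries. Reads were trimmed with Trimmomatic 0.36, aligned to GRCh38.p13 with STAR 2.7.2b and assigned to gencode release 38 genes with featureCounts (Subread 2.0.0), both mates mapped, chimeric pairs left out and mapping quality at least 30. Strand was not used, so overlapping genes on opposite strands cannot be told apart. The authors deposited whole-number counts per gene, not normalized and not pooled, with the exon positions and exon length of each gene. There were no molecular identifiers, so intervals and floors cover counting error only.

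Symbols came from the reference tables for 60463 of 60708 gene identifiers (99.6%). Counts were filtered with filterByExpr (minimum count 10), normalized by TMM (factors 0.889 to 1.13) and tested over all genes with edgeR 4.0.16 in R 4.3.3 (limma 3.58.1), by glmQLFit and glmQLFTest with Benjamini-Hochberg adjustment. Each SE was taken from the fold change and the F statistic. CPM used TMM-scaled library sizes, and TPM used counts and exon lengths. *S100A14* and *S100P* were tested by exact permutation of mean CPM, and ratios of pooled counts carry exact binomial intervals at 95%, computed in Python 3.11.15 with numpy 2.4.6, pandas 2.3.3 and scipy 1.17.1, and plotted with matplotlib 3.10.9. Promoters and their motif shares came from RefSeq on GRCh38.p14, and gene types of neighbours within 100 kb from gencode release 44. The fits were tested beforehand on simulated counts with 1 fixed spread for all genes, no library set apart and no difference between clones. That test does not cover the spread seen between the WT libraries.

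The members, gene lists and comparisons were chosen with earlier results of these data known. Named genes were all 10 members, the targeted gene, tested members of the other S100 list, and called genes or direct partners on the partner, plasminogen and EF-hand lists; *CALM2*, *CALM3*, *S100A8* and *S100A9*, *ANXA6*, *ANXA11*, *SERPINE2*, *PLG*, *CD44*, the luminal and hepatocyte genes and the uncalled neighbours were named after their values were seen. Alternatives were DESeq2 1.42.0, RLE normalization, no filter, leaving out the 100 highest genes, no fold threshold, the replicate number as a block, clones as separate groups, and leaving out each library (for the listed genes and neighbours this was added after seeing the data). Replicate numbers did not pair the samples, since 2 of 9 same-numbered pairs had deviations correlated above 0.1 (-0.31 to 0.28). No library was a duplicate of another (lowest chi-square per degree of freedom 4.78). Reads, single exons and proteins were not analysed here, and some genes of the lists are not reported here.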

Additional observations from a re-analysis of the deposited data

Results flagged for a closer look

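In the 6 libraries labelled *SNAI1*-KO, *S100A3* and *S100A6* each had 1 library far from the other 5 by the gap to its nearest neighbour, which was the whole range of the group (a share of 1). In both cases this was a single count, in CS16-1 for *S100A3* and in CS19-3 for *S100A6*, against 0 in the others, so the gap is that of 1 read pair. All 10 members were examined in this way, and chance alone marks about 1 in 20 groups. That rate need not hold for counts so near 0. With 5 libraries at 0, a single count gives a share of 1 for any gene, so nothing is concluded from these flags.

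*S100A11* differed between the clones, with a log2 fold change of 0.53 for CS16 minus CS19 (SE 0.09, adjusted p = 0.00096, edgeR's quasi-likelihood test, 3 libraries each). Over 11 alternatives this value lay between 0.48 and 0.61, with adjusted p between 5.92e-06 and 0.00988.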

How the results depend on the processing

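In all alternatives of *SNAI1*-KO against WT, 7 members were called lower, except that 8 passed with no fold threshold. In CS19 against WT 7 were called in every alternative, and in CS16 against WT 6 or 7, with *S100A10* lost without WT replicate 3. *S100A10* ranged from -2.33 to -2.03 and *S100A11* from -3.09 to -2.72 in *SNAI1*-KO against WT over 15 alternatives. Between the clones 0 members were called by edgeR, 1 with no fold threshold (*S100A11*), and *S100A13* turned direction without CS16 replicate 2, at -0.0027 (adjusted p = 0.989), within a range up to 0.11 when single libraries were left out. With DESeq2, *S100P* had an adjusted p of 0.0407 in *SNAI1*-KO against WT, but 0.129 in CS16 and 0.181 in CS19 against WT. The number of all genes called was 5272 in *SNAI1*-KO against WT, 5045 in CS16 against WT, 4990 in CS19 against WT and 198 between the clones. With no filter on low counts it was 8662 (*SNAI1*-KO), 7513 (CS19) and 352 (between the clones), and with no fold threshold 12506, 10342, 10014 and 4814 in that order. Leaving out each library gave 5165 to 5963, 5176 to 5823, 5167 to 5743 and 224 to 258. With the replicate number as a block the counts were 5220, 4943, 4921 and 201, and the block changed no member's call, with *S100A13* at -0.59 in *SNAI1*-KO against WT. Depth limits *S100P* and *S100A14* in all groups and *S100A6* and *S100A3* in the clones, where each ratio rests on 1 read pair.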
